A study of Mus musculus with 16 samples.

Results

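Whole uteri of 2 mouse strains were compared 6 h after progesterone (P4). The first strain has the genotype PgrcrePgrALsL/+ and the second PgrcrePgrBLsL/+, and they are called PRA and PRB here after the label codes ePRAoe and ePRBoe. Each P4 group held 4 libraries named as biological replicates, so the comparison used 8 of the 16 libraries of the series, and the other 8, again 4 per strain, came from mice given oil. Every feature with a mean of at least 1 FPKM (fragments per kilobase of transcript, scaled to the size of the library) over the 16 libraries was a member, which was true of 15408 of 31274 features. All animals had been ovariectomized for 2 weeks and had been housed until 8 weeks of age. Both strains carry Cre written from the Pgr locus and an allele of the LsL type, in which Cre removes a stop cassette, so the allele can act only in cells that use or have used the Pgr promoter. Mice without such an allele were not used here, so each strain is read against the other. One field of the labels, on treatment, speaks instead of mating and dissection in early pregnancy. Oil or progesterone for 6 h is given by every title, and ovariectomy by other fields of the labels. The groups rest on the titles. The library codes in the descriptions begin with A for all PRA and with B for all PRB libraries, so that whatever these letters mark cannot be told apart from strain. The labels say nothing further of the animals behind a replicate, and p-values measure the spread between these libraries.

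The progesterone receptor is a hormone-activated transcription factor made from a single gene, Pgr, as a longer form, PRB, and a shorter form, PRA, which lacks the N-terminal stretch of PRB with an additional activation function. Bound to hormone, it sits on DNA elements that are shared with the glucocorticoid, mineralocorticoid and androgen receptors and recruits coactivators and corepressors. In the uterus progesterone prepares the tissue for the embryo: it changes what the epithelium secretes, restrains the division of epithelial cells under estrogen, and makes the stroma ready to decidualize, partly through signals such as Indian hedgehog, BMPs and EGF receptor ligands that pass between the layers.

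With P4, 2471 of 15408 features were called, meaning an adjusted p under 0.05 in limma on the log2(FPKM + 1) scale. This is 16% of the features tested, with 1194 (7.75%) higher and 1277 (8.29%) lower in PRB, and the median difference over all features was -0.01. A difference of at least 1 on the log2 scale was called for 105 features higher and 99 lower. The values of the 2 groups did not overlap in 3108 features (20.2%), with PRB higher in 9.23% and lower in 10.9%. PRB P4 replicate 3 stood apart from the rest. On the first principal component of the 8 P4 libraries, which held 31.9% of the variance, the PRA libraries lay between -25 and -17.9, the other PRB libraries between 8.12 and 17, and PRB P4 replicate 3 at 44.5. Without it 1329 features were called higher (8.63%) and 1303 lower (8.46%), together 17.1% of those tested, and 1971 of the 2471 calls were kept. Among the genes described below with their own values, none lost its call without it. Genes open to doubt under several alternatives were mostly left out, so this does not describe the calls as a whole. Fewer features were called without PRA P4 replicate 4 (723 higher and 693 lower), without PRA P4 replicate 2 (818 and 734) and with the 8 P4 libraries alone (795 and 845).

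**Figure D1:**
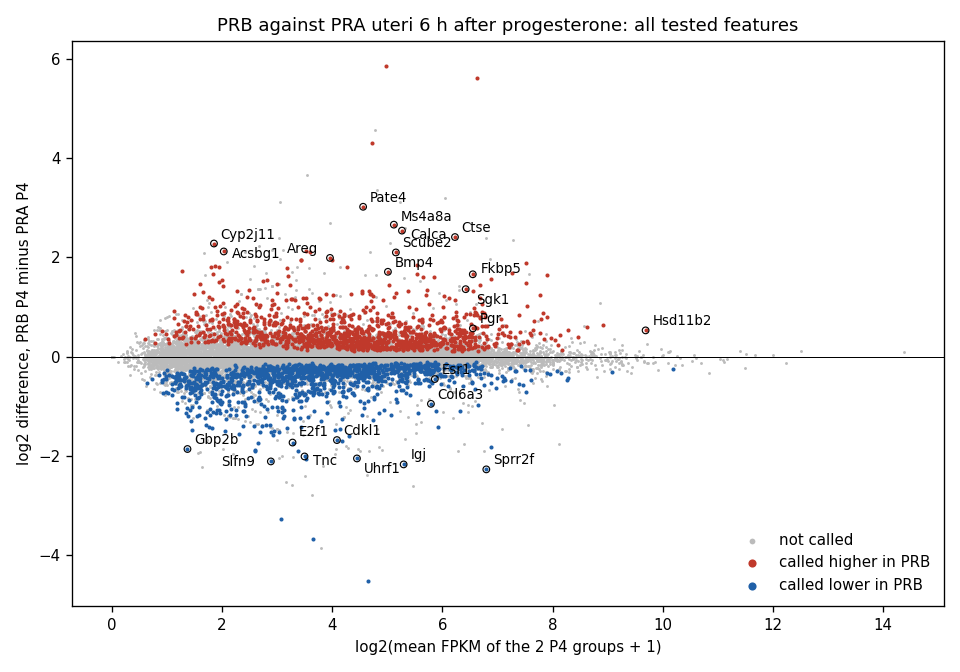
Each point is 1 of the 15408 tested features, with the log2 of its mean FPKM over the P4 groups plus 1 on the horizontal axis and the log2 difference, PRB P4 minus PRA P4, on the vertical axis. Red and blue points were called, and circles mark named genes, among them Pate4 at 3.02, Fkbp5 at 1.66, Uhrf1 at -2.05 and Sprr2f at -2.27.

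Marker genes of the tissue layers were checked beside the results. Summed over the 15 general epithelial markers the FPKM lay between 1260 and 1600 in PRA P4 and between 1500 and 1870 in PRB P4, and over the 13 stromal fibroblast markers between 1180 and 1390 and between 1280 and 1390. The 10 endothelial markers summed to 230 to 286 in PRA and to 315 to 327 in PRB, without overlap. Of the 10, 3 were called higher (30%), beside 7.75% of all features. The 18 MHC class II and macrophage genes summed to 608 to 734 in PRA and to 785 to 1180 in PRB. The 15 leukocyte markers, of which 11 were tested, summed to 168 to 210 and to 200 to 428. Both upper values in PRB came from PRB P4 replicate 3. The 9 smooth muscle markers overlapped, at 1320 to 1820 and 1130 to 1890. The 6 skeletal muscle markers, of which 3 were tested, summed to 83.8 to 153 in PRA and 48.9 to 80.2 in PRB. No marker of any of these lists was listed at 0 in all 8 P4 libraries, and their part in the results was not tested. In whole tissue, fewer cells of a type and less RNA per cell cannot be told apart.

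Pgr itself (chromosome 9, 8898900 to 8968611, GRCm38) read 72.1, 76.4, 73.2 and 73.7 FPKM in PRA P4 and 121, 122, 78.5 and 126 in PRB P4. All PRB values lay above all PRA values, but PRB P4 replicate 3 sat close to PRA. The difference was 0.57 on the log2 scale (SE 0.12, adjusted p = 0.00575), and 0.73 without that library. With oil, PRA libraries lay between 56.8 and 68.9 and PRB libraries between 79.4 and 87.6, also without overlap, and the difference of 0.36 was not called (adjusted p = 0.588). FPKM of the gene does not separate isoforms or alleles, so it does not tell how much of the RNA came from the LsL allele.

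Part of the genes that steroid receptors of this class are known to switch on were higher in PRB. Of 23 glucocorticoid-type targets tested, 10 were called higher and none lower, with a median difference of 0.59, and of 27 genes known to respond to progesterone in the uterus 13 were called higher and none lower, with a median of 0.47. The other 13 and 14 members were not called, and 7 of the 27 progesterone-responsive genes had negative differences. The lists share 4 called genes: Fkbp5, Sgk1, Zbtb16 and Errfi1. Leaving out any 1 of the 8 P4 libraries left 9 or 10 and between 10 and 13 called higher. With the 8 P4 libraries alone the glucocorticoid-type list held 16. The list counts stand beside 7.75% called higher among all features.

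Fkbp5, the co-chaperone through which steroid receptors restrain themselves, read 48.1, 46.9, 42.3 and 37.6 FPKM in PRA and 143, 136, 178 and 110 in PRB. The groups were far apart, and the difference was 1.66 (SE 0.15, adjusted p = 1.44e-05). Sgk1, a kinase that regulates sodium transport in epithelia, read 64.9, 53.6, 32.3 and 39.8 in PRA and 132, 115, 147 and 92.6 in PRB. The groups were again separate, with a difference of 1.36 (SE 0.22, adjusted p = 0.00132). Zbtb16 encodes the transcriptional repressor PLZF, a known direct target of the receptor in decidualizing stroma. It read 26, 30.4, 33.5 and 25.8 in PRA and 74.1, 64.5, 91 and 71 in PRB (1.35, SE 0.29, adjusted p = 0.00711). Hif3a, a hypoxia-inducible factor subunit that glucocorticoids induce, lay between 3.22 and 3.68 in PRA and between 8.93 and 18.2 in PRB (1.62, adjusted p = 0.0019). Among the other called members were Lcn2, the siderophore-binding lipocalin (1.32), Errfi1, an inhibitor of the EGF receptor (0.88), and the metallothionein gene Mt1 (0.59, chosen after its value was seen), whose call was lost without PRA P4 replicate 4 (0.55, adjusted p = 0.062).

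**Figure D2:**
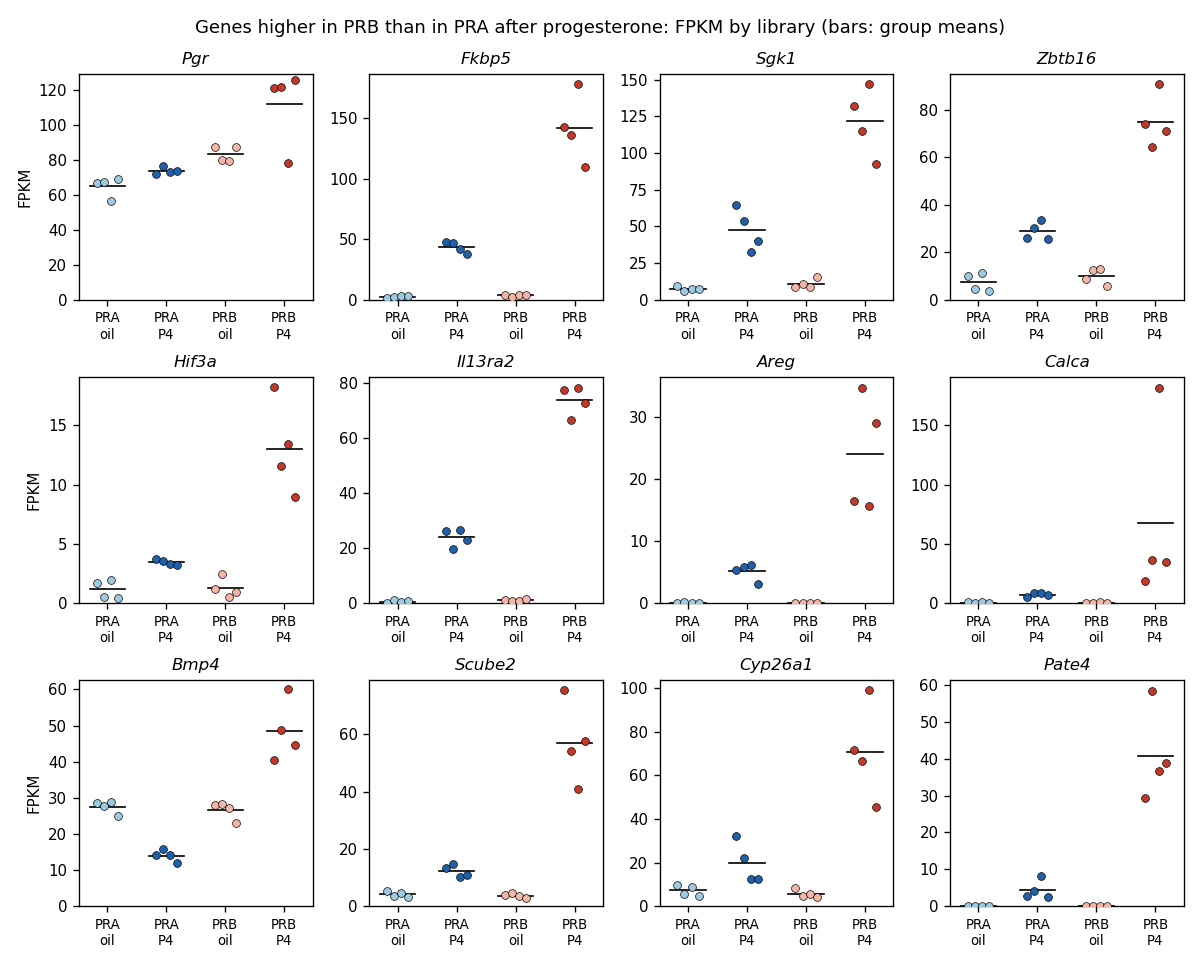
FPKM of 12 genes in each library, with 4 points for each group on a vertical axis that starts at 0 and a bar at the group mean. In all 12 genes every PRB P4 value lies above every PRA P4 value, and in Pgr the PRB oil libraries (79.4 to 87.6 FPKM) also lie above the PRA oil libraries (56.8 to 68.9).

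Well-known progesterone-dependent genes of the uterus were among the called members too. Gata2, a transcription factor that acts with the receptor, read 224, 171, 162 and 179 FPKM in PRA and 258, 270, 233 and 257 in PRB (0.47, SE 0.10, adjusted p = 0.00648). Hsd11b2, which inactivates corticosterone, was the most abundant of these genes, at 621 to 719 in PRA and 852 to 1140 in PRB, again without overlap. Its difference of 0.53 (adjusted p = 0.0272) lost its call in 6 of 24 alternatives: with quantile normalization (0.49, adjusted p = 0.0553) and without PRA P4 replicate 1 (0.49, adjusted p = 0.0608), PRA P4 replicate 2 (0.51, adjusted p = 0.071), PRA P4 replicate 4 (0.56, adjusted p = 0.0516), PRB P4 replicate 2 (0.53, adjusted p = 0.0586) or PRB P4 replicate 4 (0.45, adjusted p = 0.0711).

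Promoters of these genes were searched for the consensus of the shared response element, because the called genes include textbook targets of it. The window ran from 250 bases before to 50 after each RefSeq gene start, and the progesterone response element, a palindrome with 2 fixed arms and a spacer, was sought on both strands. It was found in 2 of the 24 promoters at hand (8.33%) for the 35 genes searched (the named increases and the called members of both lists), against 0.537% of all 27025 genes with a promoter and 0.409% of the 10508 promoters of tested features. The matches were in Sgk1 (chr10:21993686-21993730, plus strand) and Mt1 (chr8:94178979-94179023, plus strand), beginning 188 and 94 bases before the start. Both stretches are printed from RefSeq GRCm38.p6 with the matched bases in capitals, and neither overlaps an annotated exon. Both lists were made of known targets of these receptors, and both matches are in called members of the glucocorticoid-type list. The share rests on 2 genes and describes the chosen genes, not the difference between the strains. A match is a description of letters and no evidence of binding.
Sgk1: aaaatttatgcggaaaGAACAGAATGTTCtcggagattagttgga
Mt1: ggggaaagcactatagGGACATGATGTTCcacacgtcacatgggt

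Areg, an EGF receptor ligand that progesterone induces in the luminal epithelium, read 5.38, 5.81, 6.17 and 3.05 FPKM in PRA and 16.4, 34.7, 15.7 and 29 in PRB. No oil library of either strain exceeded 0.0988, and with P4 the difference was 1.99 (SE 0.22, adjusted p = 9.44e-05). Calca, which encodes calcitonin and its gene-related peptide and is known to peak in the receptive uterus, read 4.83, 8.21, 8.83 and 6.78 in PRA and 18.2, 36.6, 182 and 34.7 in PRB. The reading of 182 came from PRB P4 replicate 3, and the difference was 2.54 (SE 0.47, adjusted p = 0.00279) with it and 1.88 (adjusted p = 0.000152) without it. Il13ra2, which encodes a decoy receptor for an interleukin, lay between 19.6 and 26.7 in PRA and between 66.6 and 78.4 in PRB (1.60, adjusted p = 9.05e-05).

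Among BMP, activin and follistatin genes, 5 of 31 were called higher (16.1%) and 6 lower (19.4%), with a median of 0.02, beside 7.75% and 8.29% over all features. Without PRA P4 replicate 4 the counts were 2 and 2, and without PRA P4 replicate 2 they were 3 and 2. Bmp4, a bone morphogenetic protein ligand, read 14.1, 15.8, 14.2 and 11.9 FPKM in PRA and 40.6, 48.7, 60.2 and 44.6 in PRB, a difference of 1.71 (SE 0.11, adjusted p = 1.26e-06). The oil libraries of both strains lay in between, at 22.9 to 28.9, so that with P4 the PRA values stood below the oil range and the PRB values above it. Chrd, which encodes the BMP-binding antagonist chordin, was higher as well (0.93, adjusted p = 0.000234). Fstl1, a secreted follistatin-like glycoprotein, went the other way, at 91.7, 103, 124 and 117 in PRA and 75.3, 72.7, 67.6 and 81.6 in PRB (-0.54, adjusted p = 0.000698).

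The hedgehog list held 5 higher genes of 17 (29.4%) and none lower, beside 7.75% and 8.29% over all features. Its median was 0.01, and between 4 and 5 were called higher whichever P4 library was left out. Scube2, a secreted protein that helps to release hedgehog ligands from the cells that make them, read 13.2, 14.7, 10.3 and 11 FPKM in PRA and 75.4, 54.1, 40.9 and 57.7 in PRB. This is a 4.63-fold ratio of means and a difference of 2.10 (SE 0.18, adjusted p = 9.6e-06). The co-receptor genes Gas1 (0.31, adjusted p = 0.00432) and Boc (0.53, adjusted p = 0.00728) and the transcription factor gene Gli3 (0.26, adjusted p = 0.0166) were called higher with smaller differences. Ihh, the ligand itself and the best known epithelial target of the receptor, was not among them. It read 94.4, 79.2, 81.3 and 77.8 in PRA and 41.1, 70.7, 38.9 and 70.6 in PRB, so that every PRB value was below every PRA value, and the difference of -0.63 (SE 0.51) was not called (adjusted p = 0.43). Ihh and Il13ra2 were added to the named genes after their values were seen.

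Retinoid genes held 3 higher (17.6%) and 2 lower (11.8%) of 17, with a median of 0.01, beside 7.75% and 8.29% over all features. Cyp26a1, which degrades retinoic acid and is a known progesterone-induced gene of the luminal epithelium, read 32.2, 22.3, 12.5 and 12.4 FPKM in PRA and 71.7, 66.5, 99 and 45.7 in PRB (1.84, SE 0.32, adjusted p = 0.00186). Rdh10, which makes the precursor of retinoic acid, was higher too, at 30 to 37.2 in PRA and 51.4 to 63.5 in PRB (0.73, adjusted p = 7.89e-05). Enzymes of synthesis and of breakdown were thus both among the higher genes. Of the lower ones, none remained called without PRA P4 replicate 2 or without PRA P4 replicate 4. In the FGF list 4 of 19 were called higher (21.1%) and 1 lower (5.26%), with a median of 0.01, beside the same shares over all features. Among the higher ones was the receptor gene Fgfr1, at 20.9 to 25.9 in PRA and 26.9 to 45.9 in PRB (0.67, adjusted p = 0.00446). The FGF count fell to 2 higher without PRA P4 replicate 4 and without PRB P4 replicate 1.

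Of the 20 largest increases among called features without overlap, Calca, Scube2, Areg and Cyp26a1 have been described above, and 3 were microRNA features. These 3 read 0 in most PRA P4 libraries. In all 9 of 293 microRNA or small nucleolar features tested were called, 5 higher and 4 lower, a smaller share than the 16% of all features. Pate4, a small secreted protein of a family best known from the male tract, read 2.78, 4.2, 8.16 and 2.45 FPKM in PRA and 29.4, 58.4, 36.6 and 38.8 in PRB (3.02, SE 0.25, adjusted p = 8.64e-06), and no oil library exceeded 0.107. Ms4a8a, a membrane protein gene, read 8.31, 9.68, 5.4 and 6.25 in PRA and 39.8, 45.6, 125 and 30.1 in PRB (2.66, SE 0.33, adjusted p = 0.000179), with 2.24 when PRB P4 replicate 3 was left out. Cyp2j11, a cytochrome P450, was near 0 in PRA (0.0927 to 0.22) and between 2.86 and 9.56 in PRB (2.28, adjusted p = 2.44e-05). Both of the latter genes had their highest value in replicate 3.

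Ctse, the aspartic protease cathepsin E, read 7.65, 8.8, 12.2 and 15.4 FPKM in PRA and 452, 44.9, 28.2 and 23 in PRB. Here replicate 1 was the library far from the rest, and the difference of 2.41 (SE 0.66, adjusted p = 0.0248) was no longer called without PRA P4 replicate 1 (2.27, adjusted p = 0.0542), without PRA P4 replicate 2 (2.33, adjusted p = 0.0637) or with the 8 P4 libraries alone (adjusted p = 0.115). Cep85, a centrosomal protein gene, split within PRA, at 45.5, 40.4, 136 and 123, and stood at 252, 295, 261 and 312 in PRB. Its difference was 1.89 (adjusted p = 0.0279), and the call was lost without PRA P4 replicate 1 (1.65, adjusted p = 0.0692), PRA P4 replicate 2 (1.60, adjusted p = 0.0871), PRB P4 replicate 2 (1.86, adjusted p = 0.0608) or PRB P4 replicate 4 (1.83, adjusted p = 0.0565). Both genes also had separate groups with oil, though neither was called there. Oil values of Cep85 were 8.92 to 84.7 in PRA and 92 to 148 in PRB (1.67, adjusted p = 0.556). Those of Ctse were 3.26 to 5.89 and 11.1 to 17.8 (1.38, adjusted p = 0.963). The P4 response of PRB minus that of PRA was 0.21 for Cep85 (adjusted p = 0.923) and 1.03 for Ctse (adjusted p = 0.638). Setdb2, a lysine methyltransferase gene, and Phf11c, a PHD finger gene, are neighbours on chromosome 14 (59402009 to 59440880 and 59380833 to 59393512, GRCm38). Setdb2 read 4.79 to 5.43 in PRA and 15.2, 19.1, 46.3 and 18.5 in PRB, and Phf11c 2.68 to 3.35 in PRA and 9.02, 11.7, 36 and 10.2 in PRB. Both had their highest value in PRB P4 replicate 3, and without it the differences were 1.61 and 1.52 in place of 1.95 and 1.94.

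Other named increases were genes of metabolism, transport and signalling. Acsbg1, an acyl-CoA synthetase gene, lay between 0.353 and 0.881 FPKM in PRA and between 4.13 and 7.46 in PRB (2.12, adjusted p = 2.28e-06). Adh6a, an alcohol dehydrogenase gene, lay at 2.34 to 4.13 and 7.41 to 30.5 (2.11, adjusted p = 0.000737). Slc5a5 encodes the sodium-iodide symporter and lay at 2.13 to 6.14 and 7.83 to 22.1 (1.94, adjusted p = 0.000498). Nr4a3, an orphan nuclear receptor that is induced within hours of a stimulus, stood at 0.338 to 0.753 and 2.2 to 8.4 (1.82, adjusted p = 0.000203). Kazald1, a secreted protein with a Kazal-type domain, stood at 5.41 to 13.5 and 21.8 to 37.3 (1.81, adjusted p = 0.00185). The groups were separate in each of these genes, which the rule for naming them required.

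Genes of DNA replication and S phase formed the most one-sided list. Of 34 tested, 33 were called lower in PRB and none higher, against 8.29% called lower among all features, and the median difference was -0.94. The single member that was not called, Tyms, the thymidylate synthase gene, also had a negative value (-0.27, adjusted p = 0.522). In 32 members all PRB values lay below all PRA values, which was true of 10.9% of all features. Leaving out 1 P4 library left between 23 and 32 called, and without PRB P4 replicate 3 there were 29, with a median of -0.79. The 4 members lost without that library were Ccne1, Fen1, Gins1 and Pola1. Summed over the 34 genes, the FPKM lay between 569 and 843 in PRA P4 and between 290 and 437 in PRB P4, where the oil libraries gave 275 to 491 in PRA and 300 to 461 in PRB.

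E2f1, the transcription factor that opens S phase, read 8.79, 16.1, 13.1 and 17.8 FPKM in PRA and 3.46, 3.14, 2.16 and 5.31 in PRB (-1.73, SE 0.37, adjusted p = 0.00734). Uhrf1, which reads hemimethylated DNA behind the replication fork and recruits the maintenance methyltransferase, read 25.5, 38.8, 29.2 and 41.2 in PRA and 8.89, 7.6, 2.99 and 12.4 in PRB (-2.05, SE 0.49, adjusted p = 0.013). Mcm5 and Mcm6 encode subunits of the replicative helicase and were chosen after their values were seen. Mcm5 read 16.9, 25.5, 21.3 and 29.9 in PRA and 8.84, 8.04, 4.66 and 10 in PRB (-1.47, SE 0.32, adjusted p = 0.00763), and Mcm6 read 28.3, 40.6, 34.3 and 44.5 in PRA and 18.8, 16.3, 9.06 and 15.2 in PRB (-1.28, SE 0.24, adjusted p = 0.00275). In all 4 genes replicates 2 and 4 were the highest PRA libraries, and PRB P4 replicate 3 was the lowest of all. Cdc6, which loads the helicase at origins, lay at 4.83 to 7.85 in PRA and 0.431 to 2.58 in PRB (-1.55, adjusted p = 0.00626). Gmnn, which is not on the list, encodes geminin, the inhibitor of that loading, and was lower as well, at 6.99 to 11.7 and 1.64 to 4.07 (-1.37, adjusted p = 0.00267), so that both the loader and its inhibitor were among the lower genes.

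Other genes of replication and chromatin were lower too, of which Mcm10, E2f8 and Gins2 are on the list and Dtl, Hells and Chaf1b are not. Mcm10, which joins the helicase to the polymerase, lay at 6.02 to 11.8 FPKM in PRA and 0.625 to 2.74 in PRB (-1.74, adjusted p = 0.0153), a call lost without PRA P4 replicate 4 (-1.59, adjusted p = 0.0522). Dtl, an adaptor of the ubiquitin ligase that removes licensing factors in S phase, lay at 12.8 to 22 and 1.17 to 6 (-2.06, adjusted p = 0.00904). Hells, a chromatin remodeller needed for DNA methylation, lay at 8.28 to 12.7 and 1.44 to 3.77 (-1.57, adjusted p = 0.00709). The chromatin assembly factor subunit Chaf1b (-1.52), the repressor E2f8 (-1.50) and the replication complex gene Gins2 (-1.42) followed. PRA and PRB libraries were separate in each of these 6 genes, which the rule for naming required of Mcm10, Dtl, Hells and Chaf1b.

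Promoters of the 33 called genes were searched in the same windows for the E2F consensus TTTNGCGC on both strands, since E2F factors are the textbook regulators of this gene set. Of the 27 promoters at hand, 10 held a match (37%), against 1.57% of all 27025 genes with a promoter and 2.78% of the 10508 promoters of tested features. Nearly all tested members of the list were called, so this share describes the chosen list and not the difference between the strains. A match is again a description of letters and no evidence of binding. They belong to Mcm3, Mcm5, Mcm6, Mcm7, Cdt1, Pola1, Rfc3, Lig1, Uhrf1 and Clspn. The stretches around the first matches of 3 genes described above are printed, from RefSeq GRCm38.p6, with matched bases in capitals: Mcm5 (chr8:75109340-75109383, plus strand, 153 bases before the start), Mcm6 (chr1:128359729-128359831, minus strand, 110 bases) and Uhrf1 (chr17:56304112-56304151, plus strand, 185 bases). The Uhrf1 stretch lies inside the RefSeq span of the gene (56303337 to 56323486), so the start used for it is not the first base of that span. None of the 3 stretches overlaps an annotated exon, and the genes without a match say nothing about the factor. In Mcm5 and in the first site of Mcm6 the capitals run on because matches on the 2 strands overlap.
Mcm5: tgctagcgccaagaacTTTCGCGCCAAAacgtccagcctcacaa
Mcm6: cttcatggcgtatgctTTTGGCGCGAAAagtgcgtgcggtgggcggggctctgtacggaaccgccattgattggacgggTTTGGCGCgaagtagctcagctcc
Uhrf1: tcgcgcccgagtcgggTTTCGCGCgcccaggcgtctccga

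Genes of mitosis did not pass the threshold. Of 24 tested, none was called in limma in either direction and 3 (12.5%) had an unadjusted p under 0.05, beside 30.7% of all features. All 24 differences were negative, with a median of -0.60, and in 7 members (29.2%) all PRB values lay below all PRA values, beside 10.9% of all features. Top2a, the topoisomerase that untangles chromosomes, read 19.7, 22.9, 20.6 and 30.9 FPKM in PRA and 11.4, 14.5, 4.03 and 20 in PRB, with overlap (-1.02, SE 0.54, adjusted p = 0.22). Prc1, a protein of the spindle midzone, also overlapped, at 15.2 to 21.3 and 5.67 to 15.2 (-0.58, adjusted p = 0.303). PRB P4 replicate 3 was the lowest library in both genes, and without it the list's median was -0.33 and 21 of 24 differences were negative. Levels also spread within the oil groups, where Top2a ran from 2.35 to 15.7 in PRA.

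**Figure D3:**
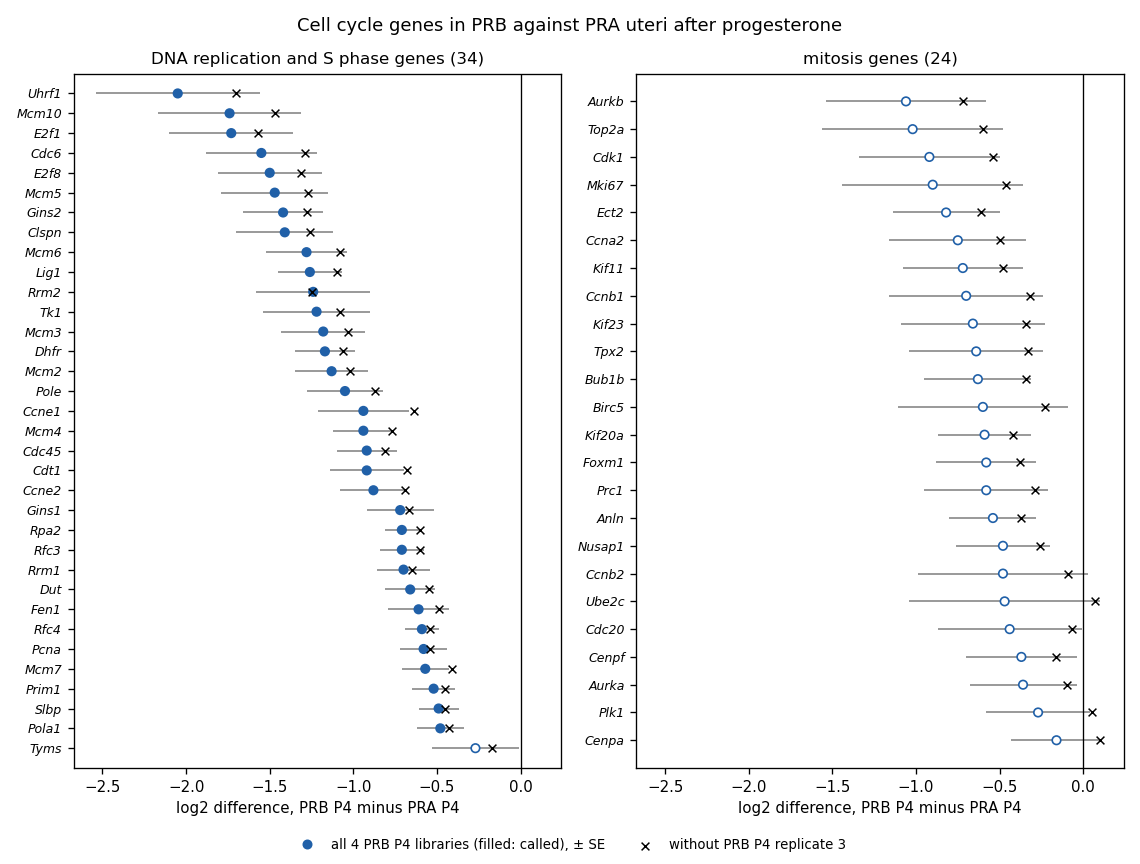
Log2 difference, PRB P4 minus PRA P4, for each tested member of the S phase list (34 genes) and the mitosis list (24 genes), with bars for 1 SE. Filled circles were called, open circles were not, and crosses give the value without PRB P4 replicate 3, which moves the median from -0.94 to -0.79 on the left and from -0.60 to -0.33 on the right.

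**Figure D4:**
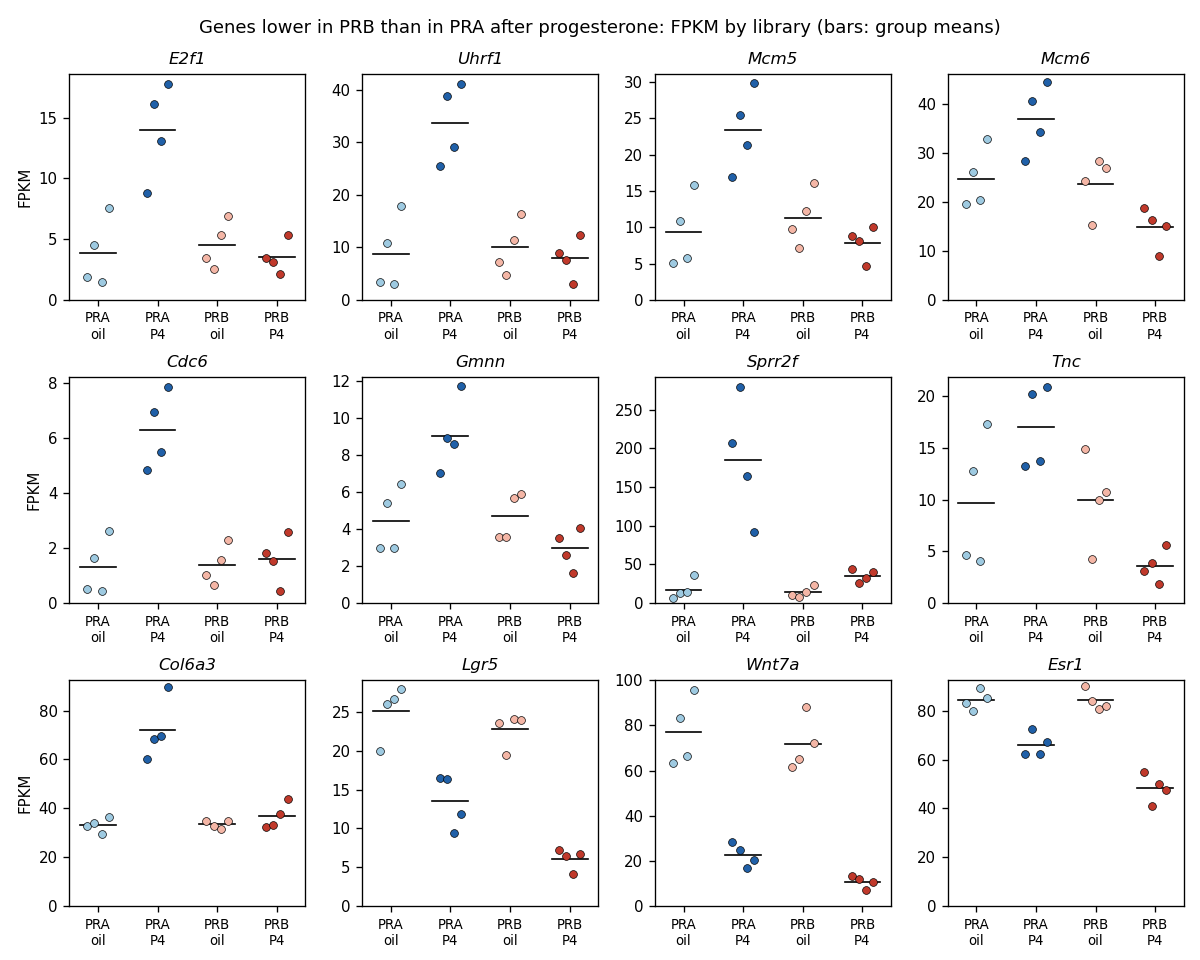
FPKM of 12 genes in each library, with 4 points for each group on a vertical axis that starts at 0 and a bar at the group mean. In all 12 genes every PRB P4 value lies below every PRA P4 value. The E2f1 panel has the PRB P4 values (2.16 to 5.31) within the range of the oil libraries (1.44 to 7.55), and the Lgr5 and Wnt7a panels have both P4 groups below the oil groups.

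Large decreases were found outside the replication genes as well. Igj, which encodes the chain that joins secreted antibodies, read 71.3, 84.9, 32.1 and 61.5 FPKM in PRA and 22.4, 20, 6.01 and 8.07 in PRB (-2.17, SE 0.55, adjusted p = 0.0169), and the call was lost without PRA P4 replicate 2 (-2.0, adjusted p = 0.0534). Slfn9, of the Schlafen family, read 7.03, 11.2, 9.78 and 15.4 in PRA and 2.16, 1.01, 0.662 and 3.68 in PRB (-2.11, SE 0.50, adjusted p = 0.0125). The membrane protein gene Tmem132c read 17.6, 20.6, 37.1 and 31.3 in PRA and 6.49, 4.8, 10.4 and 8.27 in PRB (-1.69, SE 0.27, adjusted p = 0.0011). The groups were separate in all 3 genes, which the rule for naming them required. The leukocyte marker sums given above were not lower in PRB, and their part in the Igj value was not tested. Vwa2, a secreted protein with von Willebrand factor A domains, lay at 23.5 to 31.3 and 4.51 to 15.3 (-1.60, adjusted p = 0.00514). Cdkl1, a kinase related to the cyclin-dependent kinases, lay at 19.3 to 28.8 in PRA and 5.72 to 8.21 in PRB (-1.68, adjusted p = 7.61e-05). Igsf10 was at 6.26 to 10.9 and 2.1 to 2.97 (-1.39, adjusted p = 6e-05), and Mycl at 7.74 to 9.67 and 2.53 to 3.71 (-1.21, adjusted p = 0.000195).

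Estrogen-responsive genes held 6 lower (25%) and 2 higher (8.33%) members of 24, with a median of -0.22, beside 8.29% and 7.75% over all features. The 6 became 3 without PRA P4 replicate 2 and 2 without PRA P4 replicate 4, a share of 8.33%. Sprr2f, a small proline-rich protein gene that estrogen induces in the luminal epithelium, read 207, 279, 164 and 91.5 FPKM in PRA and 43.6, 25.3, 32.9 and 40.3 in PRB (-2.27, SE 0.44, adjusted p = 0.00401). Sprr2e, of the same cluster but not on the list, read 6.6 to 12.1 and 0.984 to 2.43 (-1.88, adjusted p = 0.000327). The genes of this cluster are close copies, and reads may have been split among them. The 2 higher members were Lcn2 and Greb1, a coregulator of hormone receptors, at 13.2 to 19.1 in PRA and 27.3 to 38.5 in PRB (1.12, adjusted p = 0.000812). Esr1, the estrogen receptor gene, was lower in PRB, at 62.3, 72.4, 62.2 and 67.3 in PRA and 54.9, 40.9, 49.9 and 47.4 in PRB (-0.45, SE 0.08, adjusted p = 0.00176). The glucocorticoid receptor gene Nr3c1 (-0.33, adjusted p = 0.00617) and the corepressor gene Ncor1 (-0.15, adjusted p = 0.0142) were slightly lower, and the coactivator RNA gene Sra1 was higher (0.62, adjusted p = 1.3e-05). They were the only called members among 13 receptor and 18 coregulator genes besides Pgr.

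WNT ligands, R-spondins and targets held 9 lower (28.1%) and 1 higher (3.12%) of 32, with a median of -0.13, beside 8.29% and 7.75% over all features. Without PRB P4 replicate 3 there were 6 lower, and without PRA P4 replicate 4 there were 5. Wnt7a, the ligand of the luminal epithelium, read 28.3, 24.7, 16.8 and 20.5 FPKM in PRA and 13.5, 12, 7.27 and 10.7 in PRB (-1.0, SE 0.19, adjusted p = 0.00382). Lgr5, an R-spondin receptor that marks epithelial progenitors, read 16.5, 16.4, 9.45 and 11.8 in PRA and 7.19, 6.46, 4.11 and 6.68 in PRB (-1.02, SE 0.18, adjusted p = 0.00199). The ligand gene Wnt16 lay at 8.92 to 11.6 and 3.89 to 6.37 (-0.90, adjusted p = 0.00092). In these 3 genes every oil value of both strains lay above every P4 value, so the PRB values with P4 lay further from the oil level, as the plot of lower genes shows for Wnt7a and Lgr5. The higher member was the receptor gene Fzd1, at 55 to 67.5 in PRA and 88 to 135 in PRB (0.86, adjusted p = 0.00197).

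Among collagens, laminins and proteoglycans 5 of 37 were called lower and 3 higher, with a median of -0.02. The higher share of 8.11% is near the 7.75% over all features, and the lower share of 13.5% stands beside 8.29%. The 5 became 8 without PRB P4 replicate 3 and 2 without PRA P4 replicate 3, PRA P4 replicate 4 or PRB P4 replicate 2, where the lower share was 5.41%. Tnc, the adhesion-modulating glycoprotein tenascin C, read 13.2, 20.2, 13.7 and 20.9 FPKM in PRA and 3.12, 3.83, 1.8 and 5.56 in PRB (-2.01, SE 0.42, adjusted p = 0.0063). Col6a3, a chain of the microfibrillar collagen VI, read 60.4, 68.4, 69.8 and 89.5 in PRA and 32.5, 33.2, 37.6 and 43.8 in PRB (-0.95, SE 0.11, adjusted p = 0.00014). Its PRB values with P4 lay close to the oil values of both strains (29.5 to 36.4). Eln, the elastin gene, was higher in PRB, at 13.8 to 20.3 against 26.7 to 44.7 (0.75, adjusted p = 0.00711). Of the metalloproteinase list 5 of 27 were called higher (18.5%) and none lower, with a median of 0.08, beside 7.75% and 8.29% over all features. Only 2 were called higher without PRA P4 replicate 1, PRA P4 replicate 2 or PRB P4 replicate 4. Mmp19 read 18.9 to 25.2 in PRA and 58.2 to 88.6 in PRB (1.66, adjusted p = 2.8e-05), and the versican-cleaving Adamts15 read 31.2 to 44.3 and 78.3 to 99.3 (1.22, adjusted p = 0.000203).

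Among regulators of uterine contraction 5 of 26 were called lower (19.2%) and 3 higher (11.5%), with a median of -0.08. Nppc, the C-type natriuretic peptide gene, read 4.31, 4.91, 2.98 and 4.25 FPKM in PRA and 1.43, 0.911, 0.306 and 0.974 in PRB (-1.44, SE 0.23, adjusted p = 0.00123). Cacna1c, the pore of the L-type calcium channel, lay at 8.65 to 12 and 5.66 to 7.92 (-0.57, adjusted p = 0.0034). Ednrb, an endothelin receptor gene, was higher, at 9.42 to 12.1 in PRA and 23.2, 18.6, 70.2 and 21.7 in PRB (1.32, adjusted p = 0.0108), with 0.90 when PRB P4 replicate 3 was left out and no call with the 8 P4 libraries alone (adjusted p = 0.0646). Prostaglandin genes held 4 lower (18.2%) and 2 higher (9.09%) of 22, with a median of 0.11, beside 8.29% and 7.75% over all features. Pla2g4a, the phospholipase that frees arachidonic acid, was lower (40.5 to 58.4 against 23.2 to 34.9, -0.73, adjusted p = 0.00468), and Ptgs1, the constitutive cyclooxygenase, was higher (57.4 to 78.7 against 90.4 to 107, 0.54, adjusted p = 0.000988). The 4 lower members became 2 without PRA P4 replicate 2 or without PRB P4 replicates 2, 3 or 4, taken singly. The 2 higher members became 1 without PRA P4 replicate 3, PRA P4 replicate 4, PRB P4 replicate 2 or PRB P4 replicate 4, and 3 without PRB P4 replicate 3.

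The chloride channel gene Cftr, an estrogen-induced driver of fluid secretion, read 3.94, 3.88, 2.72 and 3.48 FPKM in PRA and 1.19, 1.03, 0.397 and 1.08 in PRB (-1.24, SE 0.25, adjusted p = 0.00489). Scnn1b, a subunit of the epithelial sodium channel, was lower too (-0.81, adjusted p = 0.0126), and the sodium pump subunit gene Atp1b1 was higher (0.76, adjusted p = 0.00153). Of 20 ion and water transport genes 3 were called higher (15%) and 2 lower (10%), beside 7.75% and 8.29% over all features. Slc6a14, an amino acid transporter of the luminal epithelium, read 31.5, 33, 24.9 and 27.2 in PRA and 70.3, 63.6, 105 and 51.9 in PRB (1.25, SE 0.16, adjusted p = 0.000203). Polyamine genes held 3 higher of 15 (20%), among them Smox (0.91, adjusted p = 0.0003) and Sat1 (0.61, adjusted p = 0.000192), which both act in polyamine breakdown. Cholesterol and fatty acid genes held 9 lower of 31 (29%) and none higher, with a median of -0.24. With 1 P4 library left out, the count of lower genes ran from 4 without PRA P4 replicate 2 or PRB P4 replicate 2 to 16 without PRB P4 replicate 1. Fdps, farnesyl diphosphate synthase, was at 28.7 to 37.9 in PRA and 14.8 to 25.6 in PRB (-0.81, adjusted p = 0.0039), and the fatty acid elongase gene Elovl6 at 12 to 14.6 and 7.21 to 8.39 (-0.69, adjusted p = 6.89e-05). The mitochondrial folate enzyme gene Mthfd1l was lower as well (-1.09, adjusted p = 0.000527).

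**Figure D5:**
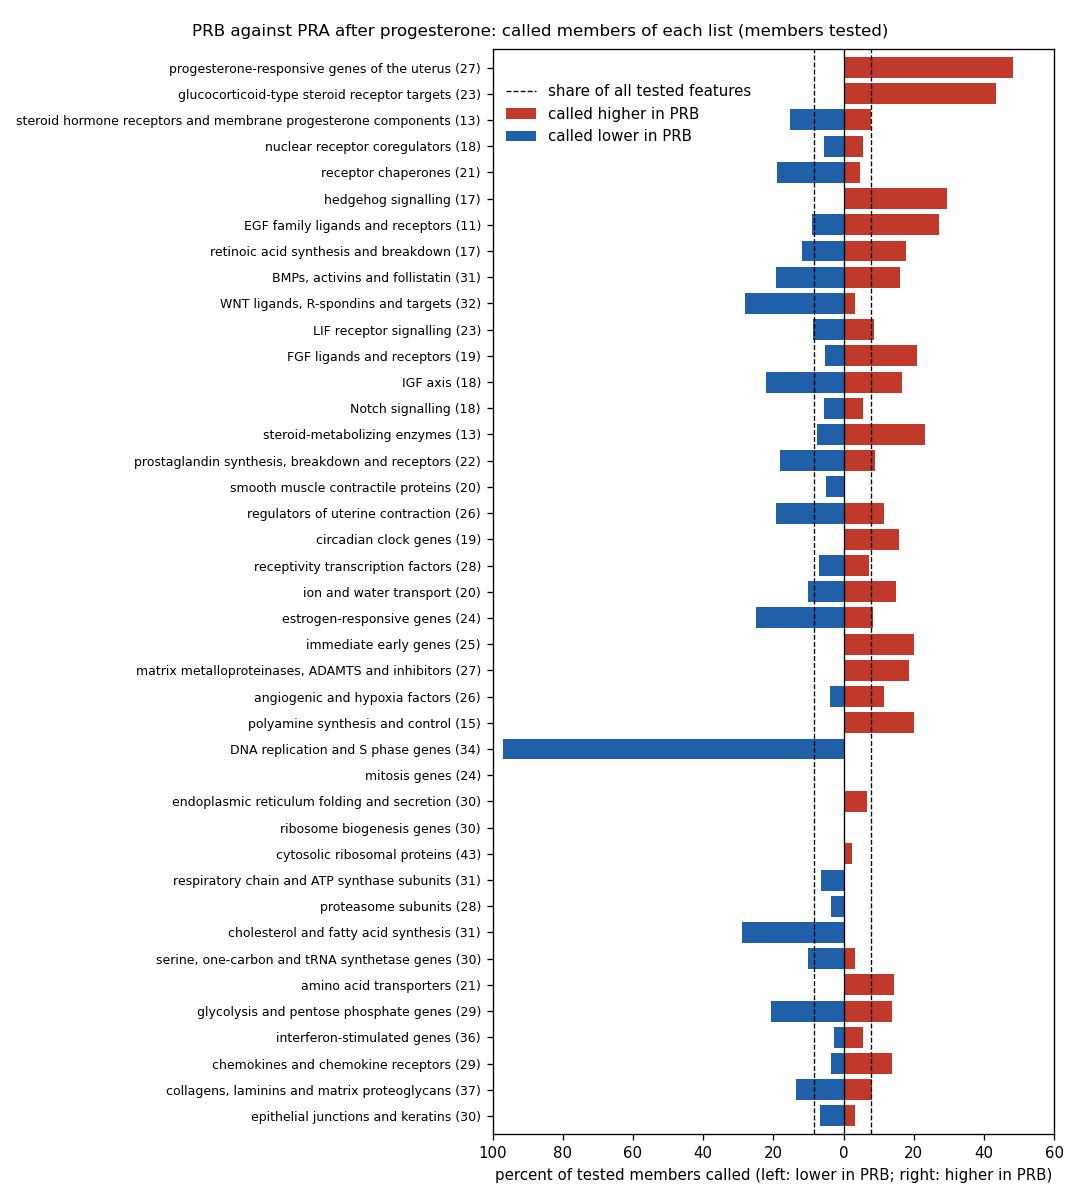
Share of the tested members of each of 41 lists that was called lower (left, blue) or higher (right, red) in PRB with P4, in percent, with the number of members tested in brackets. Dashed lines mark the shares over all features, 8.29% lower and 7.75% higher. The S phase list reaches farthest, with 33 of 34 members lower, and the progesterone-responsive list farthest to the right, with 13 of 27 higher.

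Without hormone the strains differed in far fewer features. With oil 18 of 15408 (0.117%) were called, 6 higher (0.0389%) and 12 lower (0.0779%) in PRB. The P4 and oil comparisons share no library, and 13 features were called in both, all in the same direction. They are 72.2% of the oil calls and 0.526% of the P4 calls. Gbp2b, an interferon-inducible GTPase gene (chromosome 3, 142594816 to 142619179, GRCm38), read 3.12, 2.95, 3.31 and 2.83 FPKM in PRA P4 and 0.0933, 0.131, 0.163 and 0.0722 in PRB P4. With oil it lay at 7.23 to 8.37 in PRA and 0.175 to 0.255 in PRB, so it was low in all 8 PRB libraries and in no PRA library (with P4 -1.86, SE 0.07, adjusted p = 2.74e-09). Zfp868, a zinc finger gene, was at 23 to 36.4 in PRA P4 and 13.5 to 15.9 in PRB P4 (-1.04, adjusted p = 0.000203), and with oil the difference was -1.12. Rpl34, a ribosomal protein gene, was at 158 to 166 in PRA P4 and 205 to 245 in PRB P4 (0.47, adjusted p = 0.000164), with 0.42 in oil, and was the only called gene among 43 cytosolic ribosomal proteins. The other named genes called in both were Tmem181b-ps (0.75 with P4 and 0.83 with oil), Zfp14 (0.49 and 0.56), Cacng7 (0.33 and 0.47), Tmem181a (0.20 and 0.36), Rdh13 (-0.19 and -0.38), Tgds (-0.28 and -0.27), Armc6 (-0.39 and -0.53) and Ints10 (-0.42 and -0.33). Tmem181a and Tmem181b-ps are close copies that may share reads, and the P4 call of Tmem181a was lost without PRA P4 replicate 2 (0.19, adjusted p = 0.0575), PRA P4 replicate 4 (0.20, adjusted p = 0.0516), PRB P4 replicate 2 (0.18, adjusted p = 0.0564) or PRB P4 replicate 4 (0.16, adjusted p = 0.053). Of the 41 pathway lists, the ribosomal protein list and the interferon-stimulated list held 1 member each that was called with oil in limma, and the S phase list had a median of 0.06 there.

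The difference between the strains with P4 was also set against their difference with oil in a single model term, the P4 response of PRB minus that of PRA. It was called for 352 features (2.28%), 227 higher (1.47%) and 125 lower (0.811%), and 342 of them, or 13.8% of the P4 calls, were called with P4 as well, although the terms share the P4 libraries. Pate4 (3.03, adjusted p = 0.000644), Scube2 (2.26, adjusted p = 0.00045), Areg (2.0, adjusted p = 0.00531), Bmp4 (1.76, adjusted p = 0.000189) and Fkbp5 (1.27, adjusted p = 0.00771) were called higher. Their oil differences lay between -0.16 and 0.39. Igsf10, an immunoglobulin superfamily gene (-1.57, adjusted p = 0.00144), Mycl, a MYC family transcription factor (-1.45, adjusted p = 0.00353), Cdkl1, a kinase of the cyclin-dependent type (-1.51, adjusted p = 0.00876), Col6a3 (-0.96, adjusted p = 0.00696) and Wnt16 (-1.21, adjusted p = 0.00617) were called lower. Of the S phase list 6 of 34 were called lower in this term, among them Gins2 (-1.58, adjusted p = 0.0287), whereas E2f1 (-2.03, adjusted p = 0.0621) and Uhrf1 (-2.39, adjusted p = 0.0905) were not. The counts moved with single libraries: 120 higher without PRA P4 replicate 4 and 342 without PRB P4 replicate 3, and 34 lower without PRA oil replicate 3 and 207 without PRA oil replicate 4.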

How the data were processed

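RNA sequencing of whole uteri gave 16 libraries, 4 for each of 4 groups (PRA or PRB with oil or P4), mapped to groups by their titles. The authors deposited FPKM values per gene. Per the submitters' processing notes the build was mm10 and the tools were Cuffdiff, TopHat2 2.0.4 and Cufflinks 2.0.2. How FPKM was scaled across libraries, which annotation was used and whether strand was counted is not given in the sources used here. FPKM holds no read counts, so a count model was not used. The spacing of the lowest values of single-transcript features implied 51.3 to 67.6 M fragments a library, where 1 FPKM of a transcript of 2 kb is about 103 fragments or more.

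Features with a mean FPKM of at least 1 were tested on log2(FPKM + 1), which understates the change of low genes, with limma 3.58.1 in R 4.3.3. The fit had 4 group means over all 16 libraries, an intensity trend, two-sided moderated tests and Benjamini-Hochberg adjustment over all 15408 features, with a threshold of 0.05. In simulated data for the P4 comparison 74.6%, 89.6% and 95.5% of features changed by 0.5, 1 and 2 (log2) were recovered, and 6.49% of calls were false. The simulation drew independent normal values, changed 200 of the 15408 features and held no library apart from the rest. It does not give the share recovered or the share of false calls in the real data. Alternatives were another pseudocount (0.1), no filter, a minimum mean of 5 FPKM, quantile normalization, median-ratio scaling, no trend, a replicate block, the 8 libraries of a treatment alone, and leaving out each library.

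The members and the gene lists were chosen with earlier results of these data known. Named genes were Pgr, the 20 largest differences each way among features both called and without overlap, features called with both P4 and oil, the 10 largest called differences of response each way, and up to 5 called members of a list or, where none was called, its 2 most expressed. Predicted, unnamed and small RNA features were only counted, and genes open to doubt under several alternatives were mostly left out. Some items are not reported here. Promoter sequences and coordinates came from RefSeq and GENCODE on GRCm38.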

Additional observations from a re-analysis of the deposited data

Results flagged for a closer look

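In 220 groups of 4 libraries (110 genes, both P4 groups), 12 held a library far from the other 3 in FPKM, where chance gives about 1 in 20 groups. PRB P4 replicate 3 was that library 7 times. It read low for Pgr (78.5) and high for Calca (182), Ms4a8a (125), Setdb2 (46.3), Phf11c (36), Ednrb (70.2) and Eln (44.7). PRB P4 replicate 1 stood apart for Ctse (452). In PRA P4 the library apart was replicate 1 for Acsbg1 (0.881) and Mthfd1l (10.9), replicate 3 for Kazald1 (13.5) and replicate 4 for Slc5a5 (6.14).

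For 45 named genes the strain difference itself differed between P4 and oil, by a model term that subtracts the P4 response of PRA from that of PRB (log2, adjusted p under 0.05 in limma). It was positive in Pate4 (3.03), Ms4a8a (2.77), Cyp2j11 (2.27), Scube2 (2.26), Cyp26a1 (2.13), Adh6a (2.11), Acsbg1 (2.11), Slc5a5 (2.02), Areg (2.00), Setdb2 (1.96), Phf11c (1.87), Nr4a3 (1.81), Bmp4 (1.76), Mmp19 (1.49), Slc6a14 (1.33), Fkbp5 (1.27), Il13ra2 (1.20), Lcn2 (1.19), Adamts15 (1.16), Npas2 (1.09), Greb1 (1.09), Gbp2b (1.03), Smox (0.90), Rdh10 (0.86), Chrd (0.81), Sat1 (0.66), Sra1 (0.64) and Ptgs1 (0.64). It was negative in Tmem132c (-1.97), Sprr2e (-1.68), Gins2 (-1.58), Igsf10 (-1.57), Nppc (-1.53), Cdkl1 (-1.51), Gmnn (-1.46), Mycl (-1.45), Wnt16 (-1.21), Stc1 (-1.08), Mthfd1l (-0.99), Col6a3 (-0.96), Cacna1c (-0.65), Fstl1 (-0.62), Elovl6 (-0.48), Esr1 (-0.45) and Tpi1 (-0.26). In Gbp2b, which is lower in PRB with both treatments, the positive value means a smaller gap with P4 on the log2(FPKM + 1) scale. No PRB value of Gbp2b exceeded 0.255 FPKM, and that scale understates the change of low genes.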

How the results depend on the processing

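With P4 the counts of called features (1194 higher, 1277 lower) became 795 and 845 with the 8 P4 libraries alone, and calls of at least 1 log2 lower (99) became 155 with a pseudocount of 0.1 and 56 with a minimum mean of 5 FPKM. Leaving out 1 library gave 723 to 1329 higher and 693 to 1303 lower, and 98 to 124 and 68 to 114 of at least 1 log2. The oil counts (6 and 12) became 10 and 23 with no filter and 2 and 4 from the 8 oil libraries only. Quantile normalization gave 10 higher. These counts ran from 2 to 11 and from 5 to 19 without 1 library. The differences of response ran from 120 to 342 higher and from 34 to 207 lower. The share of P4 calls that were higher was 48.3%, 50.7% with quantile normalization and 55.7% with median-ratio scaling. The causes were not tested.

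Replicate numbers did not pair the P4 libraries: same-numbered deviations correlated at 0.0651, -0.039, 0.0712 and 0.0492, and 3 of 8 libraries correlated best with their own number. Under the replicate block the P4 comparison had 1214 higher and 1355 lower calls, and 206 in place of 125 had a lower response.

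No named gene reversed its direction in any alternative, but genes open to doubt under several alternatives were mostly left out. Implied depth and 4 libraries a group limit what small differences in low genes can show.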

Other observations

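Several gene groups not yet described also held members that differed with P4. Of 19 circadian clock genes 3 were called higher in PRB (15.8%), beside 7.75% of all features. Among them was Npas2, a partner of the clock activator, at 11 to 16.9 FPKM in PRA and 19.2 to 36.4 in PRB (0.85, adjusted p = 0.00744 in limma). Of 25 immediate early genes 5 were called higher (20%), beside the same 7.75%. There were 2 without PRA P4 replicate 4, and 3 without PRA P4 replicate 3, PRB P4 replicate 1 or PRB P4 replicate 2. Zfp36, which speeds the decay of cytokine mRNAs, was at 57.5 to 81.6 in PRA and 111 to 143 in PRB (0.88, adjusted p = 0.00176). The chemokine gene Cxcl1, which attracts neutrophils, was at 0.176 to 0.96 and 1.81 to 6.71 (1.47, adjusted p = 0.00213), and Ccl11, which attracts eosinophils, was at 12.7 to 16.7 and 6.63 to 9.8 (-0.73, adjusted p = 0.0121). These chemokines thus differed in opposite directions.

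In sugar metabolism Pfkfb3, which makes the activator of phosphofructokinase, was higher in PRB (98.5 to 132 against 167 to 177 FPKM, 0.62, adjusted p = 0.00116), and the glycolytic enzyme gene Tpi1 was lower (173 to 180 against 137 to 149, -0.28, adjusted p = 0.00106). Irs1, the adaptor of the insulin and IGF receptors, was lower (-0.72, adjusted p = 0.00117), as was the secreted glycoprotein gene Stc1 (-0.75, adjusted p = 0.00567). The endothelial adhesion gene Pecam1 (0.48, adjusted p = 0.0139) and Epas1, a hypoxia-inducible factor (0.52, adjusted p = 0.00574), were higher, beside the endothelial marker sums given above. The angiopoietin receptor gene Tek was higher too (0.59, adjusted p = 0.00755), and was not called with the 8 P4 libraries alone (adjusted p = 0.0599). The tight junction gene Cldn3 was at 352 to 405 in PRA and 556 to 643 in PRB (0.63, adjusted p = 0.0013).

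Of the 13 features called with both P4 and oil, 3 lie on chromosome 8, 3 on chromosome 7, 2 on chromosome 17, 2 on chromosome 3 and 1 on chromosome 14, and 2 were not matched to a position. The 3 on chromosome 8 are Ints10 (68793929 to 68829410), Zfp868 (69610654 to 69625557) and Armc6 (70220172 to 70234446), all lower in PRB.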
